A study of Bos taurus with 30 samples.

Results

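Accessible chromatin on the 3 gene-dense chromosomes 18, 19 and 25 of the cow was followed through preimplantation development. Every ATAC-seq peak on these chromosomes was taken, except in the first and last 3 Mb of each, so that single peaks were taken by position and not by any value. The chromosomes themselves were picked with earlier results of these data known. On the ARS-UCD1.2 build the stretches kept ended at base 62818486 of chromosome 18, 60446758 of chromosome 19 and 39343683 of chromosome 25, which is 153.6 Mb or 6.64% of the autosomes trimmed in the same way. They held 159572 of the 1925876 peaks found on trimmed autosomes in 30 libraries, and of 2172195 peaks listed in all. The 26 other autosomes, which held the remaining 1766304 peaks, served as the comparison throughout.

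ATAC-seq inserts adapters into DNA that a transposase can reach, and a peak is a stretch where insertions exceed the background around it. For each of 10 conditions 3 libraries were made. Oocytes and embryos were pooled to at least 500 cells per library and came from 3 separate collections per stage, while how the ESC libraries relate to separate cultures is not stated, so that spread between ESC libraries may be technical. Germinal vesicle-stage (GV) oocytes were collected before maturation. Embryos were produced by in vitro fertilization with frozen semen of a Holstein bull and collected at the 2-cell stage (30 to 32 h after insemination), 4-cell stage (day 2), 8-cell stage (day 3) and as morula (day 5). Inner cell masses (ICM) were isolated from blastocysts, and embryonic stem cells (ESC) were bovine CTFR-bESC lines grown on feeder cells from mouse embryos. Part of the embryos of the 2-, 4- and 8-cell stages grew from day 1 with 50 µg/ml α-amanitin, which blocks RNA polymerase II, and these transcription blocked embryos are called TBE. The control stages received no α-amanitin. Pools average over cells, so that more open cells and more open chromatin per cell cannot be told apart.

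Genes are spread unevenly over mammalian chromosomes. Gene-dense chromosomes carry many promoters close together, and promoters are among the sites most often accessible. In cattle the embryonic genome is activated mainly around the 8-cell stage, before which the embryo relies on RNA stored in the oocyte, and α-amanitin prevents that activation. The label of gene-dense chromosomes was checked against the protein-coding genes of RefSeq on a later build, ARS-UCD2.0, of which only the number per whole chromosome was used. Chromosomes 19, 18 and 25 ranked 1, 2 and 3 among the 29 autosomes with 18.8, 18.7 and 16.7 genes per Mb, followed by chromosome 23 with 13.4. Together the 3 chromosomes carried 3129 of 20280 genes, or 18.2 per Mb against 7.41 on the other autosomes, a 2.46-fold difference.

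The lists differed widely in length, from 616 peaks on trimmed autosomes in 2-cell TBE replicate 1 to 216876 in 8-cell TBE replicate 2, and read numbers of single libraries were not used here. Comparisons therefore rest on the density ratio, which is the number of peaks per Mb on chromosomes 18, 19 and 25 divided by that on the other autosomes within the same library. 8-cell TBE replicate 2 stood apart with the longest list and a median fold enrichment of 2.41 on the 3 chromosomes, and comparisons of 8-cell TBE with 8-cell embryos are also given without it. Values after ± are the standard deviation (SD) over 3 libraries.

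In whole lists, peaks were denser on chromosomes 18, 19 and 25 than on the other autosomes in 29 of 30 libraries. Averaged over the 10 conditions the density ratio was 1.43, from 1.01 in ESC to 1.94 in GV oocytes. On the log2 scale the mean of the 10 conditions was 0.49, or 1.40-fold (exact two-sided sign-flip permutation test over 10 condition means, p = 0.00195, the smallest this test can give). The conditions share one genome and are therefore not fully independent. Neither this test nor the same test on other measures below takes spread between chromosomes into account. The ratio was below the 2.46-fold excess of genes, counted on whole chromosomes of the later build, in every library.

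GV oocytes had the highest mean density ratio of the 10 conditions. Their 3 libraries held 4147, 4526 and 4358 peaks on the 3 chromosomes, which was 12.2%, 12.6% and 11.5% of the peaks on trimmed autosomes, with density ratios of 1.95, 2.03 and 1.83. The lists of 2-cell embryos held only 59, 74 and 418 such peaks, and their density ratios were 1.46, 1.31 and 1.22. All GV oocyte libraries lay above all 2-cell libraries, with a log2 difference of −0.54 from GV oocytes to 2-cell embryos (exact two-sided permutation test, p = 0.1, the smallest that 3 libraries against 3 allow; p = 0.15 after Benjamini-Hochberg adjustment over 9 density comparisons).

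The 4-cell libraries gave nearly the same density ratio although their lists differed in length. They held 3541, 1948 and 1210 peaks on the 3 chromosomes, with density ratios of 1.53, 1.52 and 1.53 (mean 1.52 ± 0.0039). The 8-cell libraries held 9127, 8982 and 11164 peaks with density ratios of 1.24, 1.17 and 1.2, all below the 4-cell libraries. The log2 differences were 0.20 from 2- to 4-cell embryos and −0.34 from 4- to 8-cell embryos, and both pairs of groups were separate (exact two-sided permutation tests, p = 0.1 each, adjusted p = 0.15). From 2- to 4-cell embryos the groups overlapped with equally long lists (0.35, p = 0.3), with 6 Mb left out at each end (0.16, p = 0.4) and without chromosome 19 (0.11, p = 0.4), by the same exact permutation test. With a −log10 q of at least 3 that difference was 1.34 and the one from GV oocytes to 2-cell embryos −1.51. The 2-cell density ratio itself was then 0.818 ± 0.309, from 0.473 to 1.07, so that these stricter 2-cell peaks showed no excess on average.

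Morula libraries held 9708, 13544 and 13039 peaks on the 3 chromosomes, with density ratios of 1.16, 1.11 and 1.31 that overlapped those of 8-cell embryos. The difference from 8-cell embryos was −0.02 on the log2 scale (exact two-sided permutation test, p = 0.8) and 0.03 without morula replicate 2. The ICM libraries, with 7413, 6619 and 9211 peaks, had density ratios of 1.53, 1.2 and 1.36. They also overlapped the morula libraries (log2 difference 0.19, exact two-sided permutation test, p = 0.2), and the difference was 0.11 without ICM replicate 1.

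ESC were the condition in which the gene-dense chromosomes stood out least. Their libraries held 2654, 7489 and 6066 peaks on the 3 chromosomes, and the density ratios were 1.14, 0.872 and 1.03. ESC replicate 2 was the library of the 30 with a ratio below 1, and all ESC libraries lay below all ICM libraries. The log2 difference from ICM to ESC was −0.43, or 0.742 times the ICM ratio (exact two-sided permutation test, p = 0.1, adjusted p = 0.15), and it was −0.33 without ESC replicate 2.

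**Figure D1:**
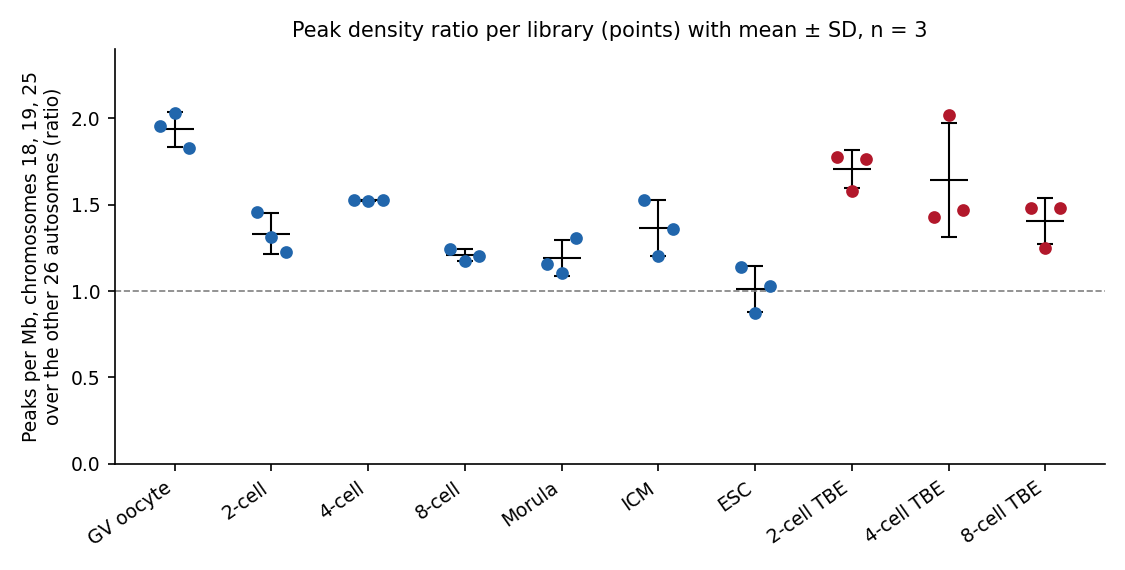
Peak density ratio of chromosomes 18, 19 and 25 over the other 26 autosomes (vertical axis, no unit) in the 10 conditions. Points are single libraries, lines mark the mean with its SD (n = 3), and the dashed line at 1 marks equal density. GV oocytes lie highest, between 1.83 and 2.03, and ESC lie around 1, between 0.872 and 1.14.

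In covered sequence the excess was as large as in number of peaks. Peaks covered 1.46% ± 0.0874 of the 3 chromosomes and 0.743% ± 0.0759 of the other autosomes in GV oocytes, a mean ratio of 1.98. In 8-cell embryos they covered 3.84% ± 0.467 against 2.98% ± 0.341, in morula 4.54% ± 1.07 against 3.71% ± 0.933, and in ICM 2.73% ± 0.661 against 1.92% ± 0.462. In ESC the covered share was 1.80% ± 0.985 against 1.72% ± 1.13, a mean ratio of 1.12. Over the 10 conditions the covered length per Mb was 1.42-fold higher on the 3 chromosomes (exact two-sided sign-flip permutation test over 10 condition means, p = 0.00195). The limits of this test given for density hold here too.

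Peaks on the 3 chromosomes therefore lay closer together. The median distance between neighbouring peaks was 19.2, 18.0 and 19.4 kb in the GV oocyte libraries, against 29.4, 26.7 and 27.6 kb on the other autosomes. In morula, where lists were long, it was 10.0, 7.49 and 7.42 kb against 11.0, 7.99 and 8.76 kb. ESC replicate 2 again went the other way, with 12.7 kb against 12.3 kb.

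In several conditions the excess was larger among the peaks with the highest significance, most clearly in 8-cell embryos and 8-cell TBE. Lists were cut to the same number of peaks, taking those with the highest −log10 p first, at 616 peaks (the length of the shortest list) and at several greater lengths. In 8-cell embryos the mean density ratio was 2.42 in the top 616 peaks, 2.30 in the top 2000, 2.00 in the top 5000, 1.82 in the top 10000 and 1.50 in the top 30000, against 1.21 in whole lists. In GV oocytes it was 2.37 ± 0.693 in the top 616, 2.45 ± 0.313 in the top 5000 and 1.97 ± 0.117 in the top 30000, against 1.94 in whole lists. In the top 616 the 8-cell mean thus lay within the spread of the GV oocyte libraries. In 8-cell TBE the mean density ratio was 2.67 ± 0.152 in the top 616, 2.50 ± 0.218 in the top 5000 and 1.64 ± 0.0779 in the top 30000, against 1.41 in whole lists. Morula and ICM showed little such slope, with 1.31 and 1.46 in the top 616 and 1.28 and 1.42 in the top 30000. The top 616 lay above whole lists in 4-cell embryos (1.77 ± 0.503 against 1.52), 2-cell TBE (1.99 ± 0.224 against 1.705) and 4-cell TBE (2.20 ± 0.485 against 1.64). They were close to whole lists in 2-cell embryos (1.35 against 1.33) and below them in ESC (0.671 against 1.01). Sorting by fold enrichment gave another order in 8-cell embryos, with a density ratio of 1.41 ± 0.294 for peaks under 3 and of 0.851 ± 0.0552 for the 54 peaks of 10 or more.

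The order of the 4- and 8-cell stages turned around when lists were equally long. In the top 616 peaks the mean density ratio was 1.77 ± 0.503 for 4-cell embryos against 2.42 ± 0.192 for 8-cell embryos, and in the top 5000 it was 1.84 ± 0.153 and 2.00 ± 0.103. The log2 differences from 4- to 8-cell embryos were 0.49 and 0.13 (exact two-sided permutation tests, p = 0.2 each), in contrast to −0.34 in whole lists. The lower ratio of 8-cell embryos in whole lists was thus found in lists of at least 112375 peaks against lists of at most 36147 peaks, and the part of list length in it was not tested.

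The steps from 8-cell embryos to morula and from ICM to ESC differed more at equal length than in whole lists. From 8-cell embryos to morula the log2 difference was −0.97 in the top 616 peaks and −0.68 in the top 5000, and from ICM to ESC it was −1.08 and −0.66, with separate groups each time (exact two-sided permutation tests, p = 0.1 each). In ESC the density ratios of the top 616 peaks were 0.822, 0.546 and 0.645, on 34, 23 and 27 peaks of the 3 chromosomes. These most significant ESC peaks were thus sparser on the gene-dense chromosomes than elsewhere. In the top 5000 the ESC ratios were 1.13, 0.743 and 1.13, so that only ESC replicate 2 lay below 1. Morula libraries differed among themselves, with ratios of 1.03, 1.04 and 1.81 in the top 5000 peaks, and morula replicate 3 stood above both others at every length. Within conditions, the longest of the 3 lists had the lowest density ratio in 6 of 10 conditions.

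**Figure D2:**
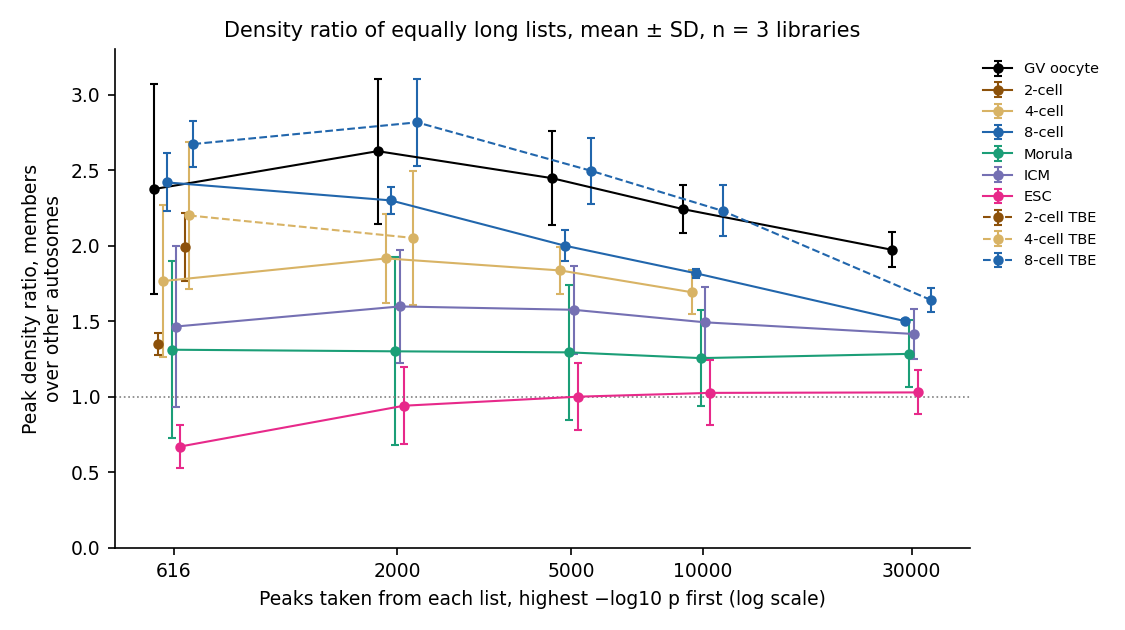
Density ratio (vertical axis, no unit) of the 616 to 30000 peaks with the highest −log10 p of each list (horizontal axis, log scale, points shifted slightly sideways), as mean ± SD of 3 libraries. Only lengths that all 3 libraries of a condition reach are drawn, which leaves 2-cell and 2-cell TBE at 616 alone. The ratio of 8-cell embryos goes from 2.42 to 1.50 with list length, while that of ESC goes from 0.671 to 1.03.

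The 3 chromosomes did not behave alike. Chromosome 19 had the highest relative density of the 29 autosomes in GV oocytes, with 31.1 peaks per Mb or 2.13 ± 0.111 times the other autosomes, and again in 8-cell embryos (1.26 ± 0.056), morula (1.26 ± 0.142) and ICM (1.50 ± 0.216). Chromosome 18 came first in 2-cell (1.44 ± 0.185), 4-cell (1.58 ± 0.0461) and 2-cell TBE lists (1.79 ± 0.157). Chromosome 25 was the lowest of the 3 in GV oocytes (1.68 ± 0.114), 4-cell embryos (1.37 ± 0.0179), ICM (1.22 ± 0.118) and all TBE stages. Chromosome 23, next in gene density and one of the comparison autosomes, had 1.83 ± 0.0297 in GV oocytes and 1.43 ± 0.0395 in 4-cell embryos. Its mean was the highest of all autosomes in 8-cell TBE, with 1.48 and, without 8-cell TBE replicate 2, 1.59. It lay above that of chromosome 25 in GV oocytes, 4-cell embryos, morula (1.21 against 1.15), ICM and ESC. The same held in 4-cell and 8-cell TBE, but not in 2-cell, 8-cell and 2-cell TBE lists. In 8-cell embryos and morula chromosome 23 also lay above chromosome 18.

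Chromosome 25 was the chromosome with the lowest density in ESC. Its ESC libraries held 453, 1309 and 1147 peaks, or 0.821, 0.644 and 0.821 times the density of the other autosomes, and it ranked 28, 29 and 29 of 29. In ICM the same chromosome had 1.33, 1.09 and 1.25 times the density of the other autosomes, above all ESC libraries. Chromosome 18 kept a mean of 1.15 ± 0.167 in ESC, with 1.33, 1.00 and 1.13 in the 3 libraries, and chromosome 19 a mean of 1.02 ± 0.131. The ICM to ESC difference of the 3 chromosomes together was −0.37 on the log2 scale without chromosome 25 and −0.59 without chromosome 18 (exact two-sided permutation tests, p = 0.1 each), so that chromosome 25 alone did not carry it.

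**Figure D3:**
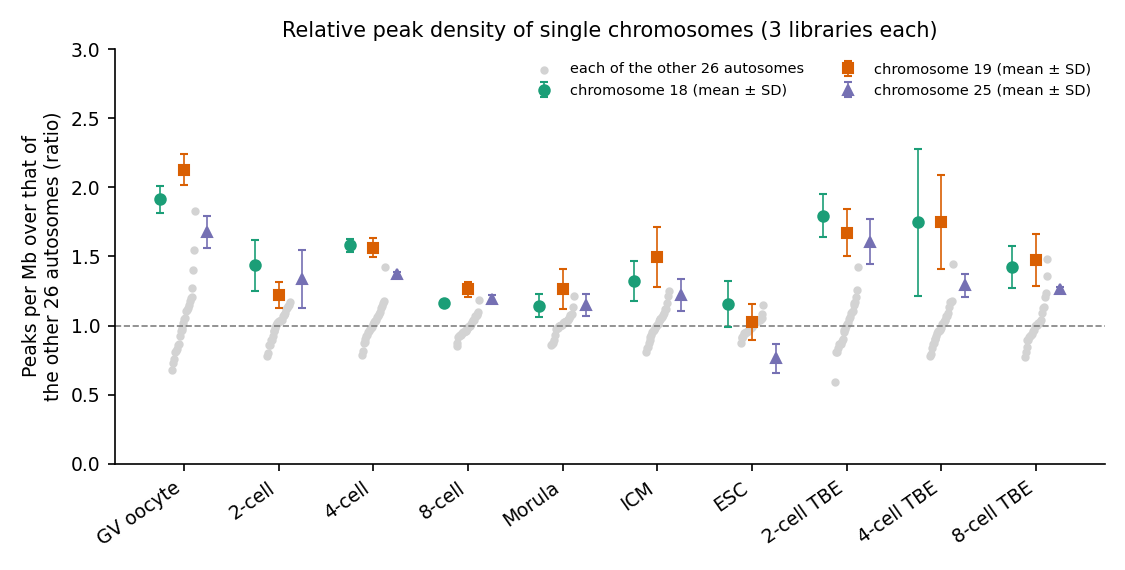
Relative peak density of single chromosomes (vertical axis, peaks per Mb over those of the other 26 autosomes) in the 10 conditions. Green circles, orange squares and violet triangles are chromosomes 18, 19 and 25 as mean ± SD of 3 libraries, and grey points are the means of each other autosome. Chromosome 19 is highest in GV oocytes at 2.13, and chromosome 25 is lowest of all in ESC at 0.762.

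Across the 29 autosomes, peak density followed gene density to a varying degree. As a description over chromosomes that share library and base composition, the median Spearman correlation over 3 libraries was 0.658 for GV oocytes, and 0.413, 0.757 and 0.635 for embryos of the 2-, 4- and 8-cell stages. It was highest in morula (0.888) and ICM (0.924), where the density ratio itself was moderate. In ESC it was 0.368, with libraries from −0.224 to 0.591. The TBE stages gave 0.693 (2-cell), 0.588 (4-cell) and 0.295 (8-cell), the last with 0.174 in 8-cell TBE replicate 2 and 0.295 and 0.437 in the others. Over the other 26 autosomes alone the medians were 0.525 in GV oocytes and 0.186, 0.664 and 0.495 at the 2-, 4- and 8-cell stages. They were 0.850 in morula, 0.895 in ICM and 0.394 in ESC. In TBE they were 0.576 (2-cell), 0.430 (4-cell) and 0.0715 (8-cell, with libraries from −0.0974 to 0.234).

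Peaks on the gene-dense chromosomes were slightly wider than elsewhere in most conditions. The median widths in 8-cell libraries were 468, 384 and 378 bp against 413, 348 and 349 bp on the other autosomes, and in ESC 311, 389 and 367 bp against 281, 337 and 308 bp. The mean width ratio ranged from 0.912 in 2-cell embryos to 1.15 in ESC, and 24 of 30 libraries lay above 1. The log2 excess of 0.06 over 10 conditions did not pass the test (exact two-sided sign-flip permutation test over 10 condition means, p = 0.0762). By the same exact permutation test it passed without chromosome 18 (0.07, p = 0.0156), without chromosome 25 (0.07, p = 0.0273), without replicate 1 of every condition (0.07, p = 0.0312) and without 2-cell replicate 1 alone (0.07, p = 0.0215), while with equally long lists it was −0.03. Along the order of 2-, 4-, 8-cell and morula stages, the later library had the higher width ratio in 83.3% of pairs of libraries from different stages (exact two-sided permutation test, p = 0.00996), but in 64.8% of pairs (p = 0.294) with equally long lists and in 65.7% (p = 0.256) without chromosome 18.

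By width class, the mean density ratio was higher for the widest than for the shortest peaks in all conditions except 2-cell, 2-cell TBE and 4-cell TBE. In 8-cell embryos the density ratio was 0.999 ± 0.0463 for peaks of 200 bp, the shortest the lists hold, and 1.16, 1.27 and 1.41 for peaks of over 200 but under 500 bp, of 500 to under 1000 bp and of at least 1000 bp. In ESC it was 0.867 ± 0.149 for the shortest and 1.37 ± 0.374 for the widest peaks, so that ESC also had an excess of wide peaks on the 3 chromosomes. From the shortest to the widest peaks it went from 1.08 ± 0.0164 to 1.25 ± 0.124 in morula and from 1.16 ± 0.0885 to 1.48 ± 0.173 in ICM. In 8-cell TBE it went from 1.05 ± 0.0724 to 1.48 ± 0.142. GV oocytes had an excess in every class, from 1.55 to 2.03. In 4-cell embryos the excess was largest between 200 and 500 bp (1.71 ± 0.0211) and 1.51 ± 0.266 for the widest peaks. In 2-cell, 2-cell TBE and 4-cell TBE lists the widest class had the lowest ratio, with 0.591 ± 0.533, 0.959 ± 0.840 and 1.01 ± 0.234 on only 11, 36 and 117 such peaks.

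**Figure D4:**
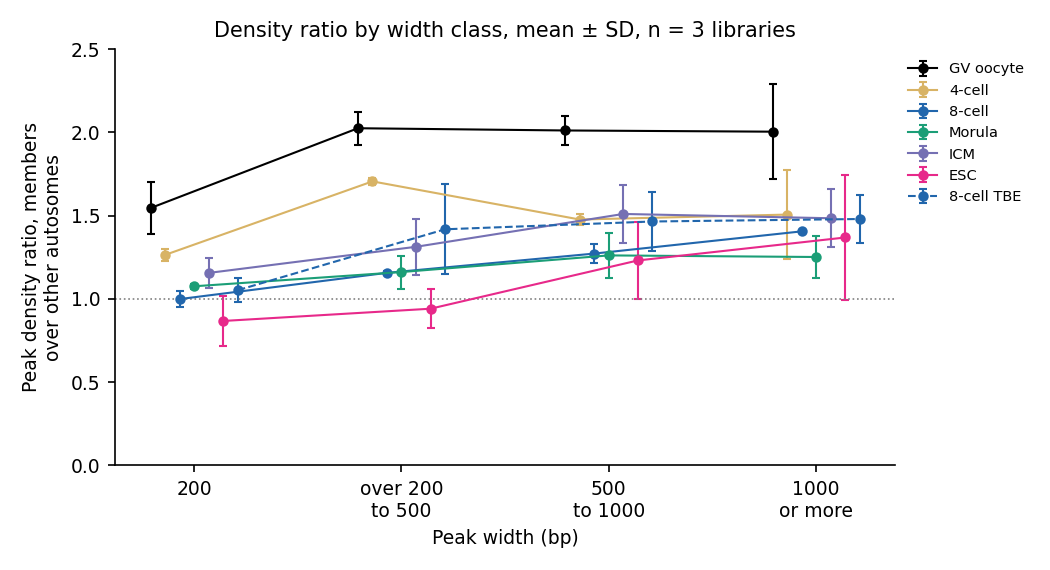
Density ratio of chromosomes 18, 19 and 25 over the other autosomes (vertical axis, no unit) for 4 classes of peak width in bp (horizontal axis), as mean ± SD of 3 libraries in 7 conditions. The 2-cell, 2-cell TBE and 4-cell TBE lists are not drawn, since some of them hold at most 2 wide peaks on these chromosomes. In 8-cell embryos the ratio goes from 0.999 at 200 bp to 1.41 at 1000 bp and more, and in ESC from 0.867 to 1.37.

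The fold enrichment of peaks over local background hardly differed between chromosomes. Its median on the 3 chromosomes divided by that on the other autosomes had condition means between 0.969 in ICM and 1.06 in 4-cell TBE. The log2 excess over 10 conditions was 0.01 (exact two-sided sign-flip permutation test over 10 condition means, p = 0.408). By the same exact permutation test it was −0.034 (p = 0.00195) among peaks with a −log10 q of at least 3, where the stricter peaks of the 3 chromosomes had the lower median.

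Within the 3 chromosomes, peaks were concentrated in a few stretches. Each chromosome was divided into windows of 1 Mb, and the window fullest on average over the conditions was named on each. On chromosome 18 it was chr18:55000001-56000000, which held 1.71% of the peaks of the 3 chromosomes on average over the conditions, with a mean of 79.7 peaks in GV oocytes, 44.3 in 4-cell embryos, 132 in 8-cell embryos, 138 in morula, 113 in ICM and 78.0 in ESC. On chromosome 19 it was chr19:27000001-28000000 with 1.31%, and on chromosome 25 chr25:26000001-27000000 with 1.18%. They were also the fullest of their chromosome within 8, 7 and 5 of the 10 conditions. The emptiest windows were chr18:31000001-32000000 (0.132%), the first window of the trimmed chromosome 19, which ends at base 4000000 (0.178%), and chr25:30000001-31000000 (0.25%).

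By number of peaks, the windows emptiest on average varied widely between conditions. They held most peaks in 8-cell embryos or morula, whose lists were the longest on average. As a share of the peaks of the 3 chromosomes in a condition, they held 0 to 0.407% (chromosome 18), 0.0230 to 0.383% (chromosome 19) and 0.0551 to 0.452% (chromosome 25). In chr18:31000001-32000000 a mean of 1.33 peaks was found in GV oocytes and 1.67 in 4-cell embryos, but 20.0 in 8-cell embryos, 37.7 in morula, 14.0 in ICM and 22.0 in ESC, and 4.67 in 8-cell TBE (1.50 without replicate 2). In the first window of chromosome 19 GV oocytes had a mean of 1.00 peak, 4-cell embryos 4.33, 8-cell embryos 37.3, morula 27.0, ESC 8.00 and 8-cell TBE 15 (5.50 without replicate 2). In chr25:30000001-31000000 it was 10.7 in GV oocytes and in ESC, 36.7 in 8-cell embryos, 54.7 in morula and 33.0 in 8-cell TBE, but 8.00 in 8-cell TBE without replicate 2. The fullest 6 of the 59 windows of chromosome 18 held 23.9% of its peaks in GV oocytes, 24.1% in 4-cell embryos, 18.6% in 8-cell embryos and 16.7% in morula. Peaks were thus more evenly spread along chromosome 18 in the longer lists of 8-cell embryos and morula than in GV oocytes and 4-cell embryos. After morula the share was higher again, with 20.7% in ICM and 18.6% in ESC. On chromosome 25 the fullest 4 of 36 windows held 18.4% in 8-cell embryos and 16.7% in morula, but 21.5% in ICM and 21.8% in ESC. The part of list length in these differences was not tested.

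Some sites on the 3 chromosomes held a peak in nearly every library. Peaks of all 30 libraries merged into 36019 regions, of which 14352 were seen in 1 library, 2438 in at least 15, 334 in at least 24 and 1 in all 30. Regions seen in at least 15 libraries made up 6.77% of the regions of the 3 chromosomes and 3.70% of those of the other autosomes, or 15.9 against 7.87 per Mb. Regions seen in at least 24 libraries made up 0.927% against 0.527%, while in all 30 libraries it was 1 region, or 0.00278%, against 41 regions, or 0.00893%, elsewhere. The region covered in all 30 libraries was chr18:59225086-59226055 (970 bp), with a mean fold enrichment of 8.59, from 7.10 to 10.2. The most widely shared regions of the other 2 chromosomes were chr19:5089178-5091428 and chr25:28378122-28379129, each covered in 29 libraries, with mean fold enrichments of 5.50 and 6.41. The genes at these positions were not looked up, since no annotation of this build was used.

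Peaks recurred between replicates more often on the gene-dense chromosomes in 9 of the 10 conditions. Regions that overlapped peaks of at least 2 of 3 replicates numbered 3560 in GV oocytes, 28, 1437 and 8702 at the 2-, 4- and 8-cell stages, 11530 in morula, 6759 in ICM and 4847 in ESC. They were 49.4% of the merged regions of GV oocytes on the 3 chromosomes against 44.1% on the other autosomes, 61.5% against 58.7% in 8-cell embryos, 70.7% against 66.1% in morula and 53.7% against 46.5% in ESC. In 2-cell embryos, with 28 such regions, the shares were 5.36% and 5.46%. These shares and those that follow are counts over regions, which are not replicates, and no test was run on them.

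From the 4-cell stage on, larger shares of the regions of the gene-dense chromosomes overlapped a region of the next stage. Of the few 2-cell regions on the 3 chromosomes 78.6% overlapped a 4-cell region, against 96.2% on the other autosomes. Of the 4-cell regions on the 3 chromosomes 91.8% overlapped an 8-cell region, against 84.8% on the other autosomes. From 8-cell embryos to morula 74.8% against 68.0% were kept, from morula to ICM 49.4% against 42.3%, and from ICM to ESC 43.3% against 39.6%. Between GV oocytes and 4-cell embryos the shares were close, with 34.5% and 34.8%. An overlap of 1 bp counted, and regions per Mb were themselves denser on the 3 chromosomes. Their density ratios were 1.22 in 8-cell embryos and in morula, 1.38 in ICM and 1.03 in ESC. The part of region density and width in the kept shares was not tested.

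Newly opened regions made up a smaller share of the lists on the gene-dense chromosomes from the 8-cell stage on, but not before. They were 98.5% of 4-cell regions against 97.3% elsewhere and 10.7% of the 28 regions of 2-cell embryos against 4.44%. They were 84.9% of 8-cell regions against 90.3% elsewhere, 43.3% of morula regions against 48.6%, and 15.2% of ICM regions against 18.2%. The widest gap was in ESC, where 39.7% of regions on the 3 chromosomes shared no base with an ICM region, against 58.7% on the other autosomes. Per Mb, regions gained from ICM to ESC were 0.696 times as dense on the gene-dense chromosomes as elsewhere, whereas regions lost in that step were 1.29 times as dense.

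Blocking transcription was compared at each of the 3 stages in which TBE were collected. At the 2-cell stage the TBE libraries held 69, 699 and 1046 peaks on the 3 chromosomes with density ratios of 1.77, 1.58 and 1.76, all above the control ratios of 1.46, 1.31 and 1.22. The log2 difference was 0.36, or 1.28-fold (exact two-sided permutation test, p = 0.1, adjusted p = 0.15). At the 4-cell stage the TBE libraries held 2571, 421 and 241 peaks with ratios of 1.43, 2.02 and 1.47, on both sides of the controls at 1.52 to 1.53. The log2 difference was 0.09 (exact two-sided permutation test, p = 1) and −0.07 without 4-cell TBE replicate 2.

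At the 8-cell stage the TBE libraries held 7366, 17726 and 4136 peaks on the 3 chromosomes. Their density ratios were 1.48, 1.25 and 1.48, all above the control ratios of 1.24, 1.17 and 1.2, although 8-cell TBE replicate 2 lay close to them. The log2 difference was 0.22, or 1.16-fold (exact two-sided permutation test, p = 0.1, adjusted p = 0.15), and 0.30 without that replicate. Once peaks under a fold enrichment of 3 were dropped the groups overlapped and the difference was 0.10 (exact two-sided permutation test, p = 0.7). In covered length the log2 difference was 0.18 (exact two-sided permutation test, p = 0.1), again with separate groups, and 0.25 without 8-cell TBE replicate 2. It was 0.01 (p = 1) in the top 616 peaks, 0.29 (p = 0.1) in the top 5000 and 0.10 (p = 0.5) with a fold enrichment of at least 3, by exact permutation tests. The groups overlapped in median width ratio (log2 difference −0.02, p = 0.5) and in fold enrichment ratio (0.00, p = 1), both by exact two-sided permutation tests, with −0.02 and 0.03 without that replicate. In the top 616 peaks they were separate in both, with differences of −0.21 in width and 0.05 in fold enrichment (exact two-sided permutation tests, p = 0.1 each). At equal list length the density difference was 0.15 (p = 0.2) in the top 616 peaks and 0.32 (p = 0.1) in the top 5000, and without replicate 2 it was 0.19 (p = 0.2) and 0.38 (p = 0.1), all by exact two-sided permutation tests.

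The regions that opened at the 8-cell stage were then followed into TBE. A region counted as gained where 2 of the control replicates shared a peak that was absent at the 4-cell stage, and the share of gained regions with no peak was then computed in the remaining control library and in each TBE library, for every choice of the remaining library. In the 3 8-cell TBE libraries 66.8%, 52.0% and 77.9% of such regions on the 3 chromosomes lacked a peak, against 78.8%, 62.7% and 86.4% on the other autosomes. In held-out control libraries the percentages were 17.2%, 20.7% and 5.40%, against 18.9%, 20.4% and 6.48%. Every TBE library thus lacked fewer of the regions on the gene-dense chromosomes than of those elsewhere, by 8.49 to 12.0 points. The most significant 8-cell peaks were also the densest on the 3 chromosomes, though not those with the highest fold enrichment, and the part of peak strength in this gap was not tested.

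The gap between the gene-dense and the other chromosomes was −10.4 ± 1.78 points in 8-cell TBE and −0.798 ± 1.06 points in held-out controls. The difference of −9.60 points separated all TBE libraries from all controls (exact two-sided permutation test, p = 0.1, the smallest this design allows). It was −9.44 points without 8-cell TBE replicate 2, and −5.54 and −5.50 points when peaks had to cover 50% of a region or when regions came from either of the other control replicates. At the 4-cell stage the gap was −4.49 ± 3.25 points in TBE and −3.03 ± 0.973 points in controls. That difference of −1.45 points did not hold up (exact two-sided permutation test, p = 0.5), and it was 0.257 points without 4-cell TBE replicate 2.

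**Figure D5:**
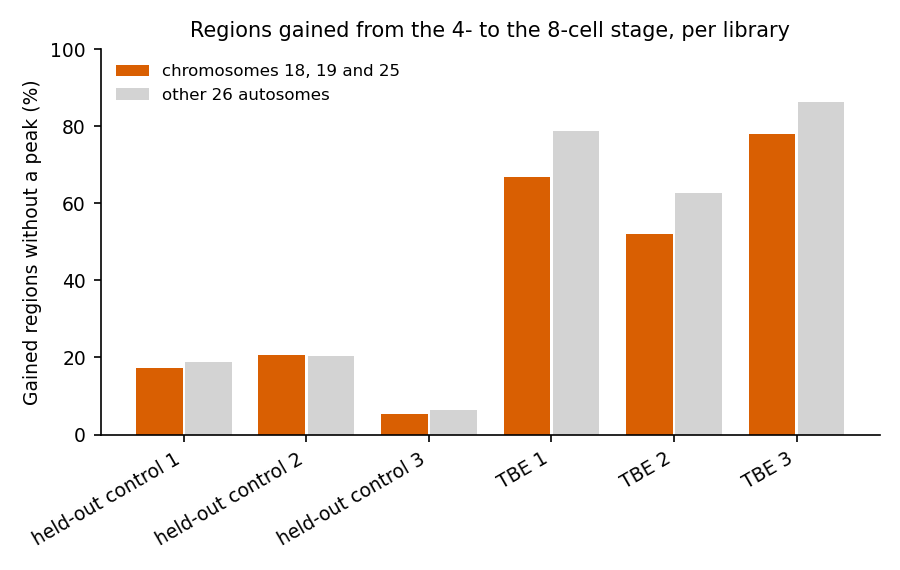
Regions gained at the 8-cell stage that lack a peak (vertical axis, percent) on chromosomes 18, 19 and 25 and on the other autosomes, in 3 held-out control and 3 TBE libraries of the 8-cell stage. Each bar is 1 library, so that no error bars are drawn. In every TBE library the orange bar of the gene-dense chromosomes is lower than the grey bar, for example 66.8% against 78.8% in replicate 1, while in controls they differ by at most 1.68 points.

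The strictest count took regions with a peak in all 3 control and in none of the TBE libraries. At the 8-cell stage these were 2252 of 26466 regions on the 3 chromosomes, or 8.51%, against 10.4% over all autosomes. Regions with a peak in all 3 TBE and no control library were 390 there, or 1.47%, against 1.5% over all autosomes. Without 8-cell TBE replicate 2 these became 3034 of 17747 regions, or 17.1%, against 20.1%, and 447, or 2.52%, against 2.53%. At the 4-cell stage 41 of 5763 regions, or 0.711%, were seen in controls alone against 0.708% over all autosomes, and 0 in TBE alone against 0%. At the 2-cell stage 0 of 1750 regions were seen in controls alone against 0%, and 7, or 0.400%, in TBE alone against 0.342%. At the 2- and 4-cell stages the 3 chromosomes were thus close to the level over all autosomes.

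Of the 8-cell regions seen in controls alone, those with the highest fold enrichment all lay on chromosome 18. The region chr18:27607589-27608005 (417 bp) had fold enrichments of 9.91, 10.9 and 10.2 in the 3 control libraries, and peaks were also found there in the 3 morula libraries, but in none of the other conditions. The region chr18:41005713-41006146 (434 bp), with 9.24, 10.8 and 9.86, showed the same pattern. The region chr18:49813628-49814137 (510 bp), with 7.53, 9.91 and 12.4, was found in 2 GV oocyte, 3 morula, 3 ICM and 1 ESC library as well. They were chosen for their high values in controls and their absence in TBE, so that these values are a description.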

How the data were processed

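Peak lists of 30 ATAC-seq libraries were used, 3 for each of 10 conditions, grouped by their labels. Per the labels and methods, reads were trimmed by the authors (Trim Galore) and mapped with BWA 0.7.17 to the ARS-UCD1.2 build, filtered for duplicates, mapping quality and mitochondrial origin, and used for broad peak calls in MACS2 2.1.1 (q of 0.05). The lists are per replicate, while the study also pooled and subsampled reads. The fold enrichment deposited by the authors is the ratio of pileup to local background, as a mean along the peak. Significance was deposited by the authors as −log10 of the p and the q value. The score deposited by the authors, 10 times the −log10 q, was not used. Read numbers of single libraries were not used here, so that list length stands in for depth.

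The last base of a chromosome was taken as the largest peak end in any list. Densities, covered length after merging, medians of width and of fold enrichment, and merged regions were computed with Python 3.11.15 (scipy 1.17.1, pandas 2.3.3, numpy 2.4.6), and figures were drawn with matplotlib 3.10.9. Regions matched where they shared at least 1 bp. Tests were exact permutation tests on log2 ratios, with Benjamini-Hochberg adjustment over 9 density comparisons. Merging and overlap were checked on 200 simulated sets of intervals with 0 mismatches. The regions named were, on each chromosome, the fullest and the emptiest 1 Mb window by mean share over conditions and the region covered in most libraries, and the 3 regions with the highest mean fold enrichment among 8-cell regions seen in 3 control libraries and no TBE library. The chromosomes, comparisons and rules were chosen with earlier results of these data known. Alternatives were peaks with −log10 q or fold enrichment of at least 3, equally long lists, other chromosome ends, comparison chromosomes and overlaps, leaving out chromosomes or libraries, and a block by replicate number. Genes at the regions and their sequences were not analysed here.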

Additional observations from a re-analysis of the deposited data

How the results depend on the processing

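Over 570 combinations of a result with an alternative, 525 kept direction and side of the threshold of 0.05. Density differences between 3 libraries and 3 could not pass that threshold under any setting. In the list below, trends are percentages of pairs of libraries with the higher value at the later stage, and the other values are log2 differences or, for regions lacking in TBE, points. The cause was not tested where none is named. With a −log10 q of at least 3, the 8-cell TBE difference was 0.0702 in width and −0.0113 in fold enrichment, the density and covered length trends were 55.6 and 53.7, the fold enrichment excess was −0.034 and its trend 94.4 (p = 0.000189, exact permutation test). With a fold enrichment of at least 3, the density difference from 8-cell to morula was 0.0235 and the 8-cell TBE width difference 0.151. With equal numbers of top peaks, the density difference from 4- to 8-cell was 0.489, the density, covered length and width trends were 54.6, 55.6 and 64.8, the width excess was −0.0255 and the fold enrichment excess −0.0375. With the top 5000 peaks, which 25 libraries reached, these were 0.126 for 4- to 8-cell density, 61.1 for the width trend, −0.0339 for the fold enrichment excess and 41.7 for its trend. On whole chromosomes the covered length trend was 53.7, and with 6 Mb left out at each end the density trend was 22.2 (p = 0.0367, exact permutation test). Without chromosome 18 the width excess was 0.073, which passed the threshold, and its trend 65.7. Without chromosome 19 the 8-cell TBE fold enrichment difference was −0.00542 and the density trend 16.7. Without chromosome 25 the width excess was 0.0722, past the threshold, and the fold enrichment trend 46.3. With means over peaks the fold enrichment excess was −0.00981. Regions lacking in 4-cell TBE differed by 2.27 points with regions from either control replicate and by 1.29 with a −log10 q of at least 3. The density trend was 25.9 (p = 0.0749, exact permutation test) with all libraries and 20.0 (p = 0.0324) without 2-cell replicate 3, the covered length trend 40.7 (p = 0.532) and the fold enrichment trend 53.7 (p = 0.835).

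Leaving out single libraries or replicate numbers gave ranges of −0.0953 to 0.0281 for 8-cell to morula density, −0.0747 to 0.178 for 4-cell TBE density, −0.0559 to 0.0458 for 8-cell TBE fold enrichment, 0.055 to 0.0695 for the width excess, 80.0 to 86.7 for the width trend, 44.4 to 62.5 for the fold enrichment trend, 16.7 to 33.3 for the density trend and −2.98 to 0.257 points for regions lacking in 4-cell TBE. Exact permutation tests of 2 libraries against 2, with 1 replicate number left out, could not go below p = 0.333. Replicate numbers were not shown to pair libraries. The labels say that control and TBE embryos of a collection were cultured together but not that the number marks a collection. Libraries with the same number correlated at −0.535 to 0.203 in their deviations, with 4 of 9 pairs over 0.1, and 8 of 18 libraries correlated best with their own number. With a replicate block the values were the same (−0.54 for GV oocyte to 2-cell and 0.22 for 8-cell TBE density, p = 0.25, the smallest possible, by exact permutation test), the width trend had p = 0.022, and no call changed.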

Other observations

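The peaks with the highest fold enrichment were not those in which the gene-dense chromosomes stood out. At a fold enrichment of 10 or more, chromosomes 18, 19 and 25 held 0 of 551 peaks in the 2-cell lists, which allows a share of up to 0.544%, against 55 of 6163 peaks or 0.892% on the other autosomes. They held 0 of 1814 in 2-cell TBE, which allows up to 0.165%, against 0.337%, and 0 of 3233 in 4-cell TBE, which allows up to 0.0928%, against 0.197%. These limits take 3 counts as the most that a count of 0 allows and cover counting error only. They also treat peaks pooled from 3 libraries as separate, and so do not show a depletion. On the other autosomes the single lists held 19, 19 and 17 such peaks in 2-cell embryos, although list lengths differed widely. In 2-cell TBE these were 21, 16 and 14, and in 4-cell TBE 25, 20 and 15. Whether the lists repeat the same sites was not tested. In ESC 40 of 16209 peaks on the 3 chromosomes reached this level, or 0.247%, against 0.673% on the other autosomes, while in morula the shares were close, with 309 peaks or 0.851% against 0.880%. No test was run on these counts, which were looked at after other results were known.

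The windows of chromosome 19 ranked less alike in 8-cell embryos and GV oocytes than those of chromosomes 18 and 25. The Spearman correlation of mean peak numbers with 8-cell embryos over its 57 windows was 0.324 in GV oocytes, 0.677 in 4-cell embryos, 0.763 in morula, 0.407 in ESC and 0.380 in 8-cell TBE, and 0.576 in 8-cell TBE without replicate 2. Along chromosome 18, over 59 windows, the same values were 0.786, 0.871, 0.801, 0.787 and 0.761, and along chromosome 25, over 36 windows, 0.799, 0.785, 0.827, 0.613 and 0.650. Without 8-cell TBE replicate 2 the last values were 0.828 for chromosome 18 and 0.749 for chromosome 25. Windows of a chromosome share libraries and neighbours, so that these correlations are descriptions.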
